A study of Mus musculus with 4 samples.

Results

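The genes described here make cholesterol and fatty acids. They were taken as every probe set whose gene symbol in the platform annotation was exactly 1 of 37 listed symbols, and 27 of the 37 genes were found there, with 39 of the 12488 probe sets of the array. Acat1, Acat2, Pmvk, Srebf2, Scap, Acaca, Fads2, Fads3, Acsl1 and Acsl3 had none under that rule and were not analysed here. Probe sets in the lowest 40% by mean log2 level over all 4 arrays were not tested, which set the limit near a signal of 24.0. This limit was passed by 32 probe sets of 25 member genes, among 7453 probe sets and 5639 genes in all. The sterol branch held 14 tested enzymes of 16 listed, the fatty acid branch 10 of 16, and the regulators 1 of 4.

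RNA came from adherent peritoneal cells of female BALB/c mice aged 6 to 8 weeks, drawn into the cavity with 2 ml of 3% thioglycolate (an irritant) and collected 4 days later. The cells spent 1 night with porcine transforming growth factor beta 2 (TGFb2, 5 ng, with no volume in the labels) or with the vehicle PBS, and 2 arrays were made of each. Both groups were in the same serum-free medium, to which transferrin, linoleic acid, selenium and iron had been added. The labels call over 95% of the adherent cells positive for the macrophage marker F4/80. Separate cultures or animals are not stated for the replicates, and p-values therefore measure only array-to-array spread, which may be technical. The arrays are called TGFb2 replicates 1 and 2 and PBS replicates 1 and 2.

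Cells build cholesterol from acetyl-CoA. Mevalonate is made first, then isoprenoid units that are joined into squalene, and squalene is closed into lanosterol and trimmed to cholesterol. Fatty acid synthesis starts from the same acetyl-CoA, which is lengthened to palmitate, and elongases, desaturases and acyl-CoA synthetases then shape and activate the chains. The membrane-bound transcription factors SREBP, encoded by Srebf1 and Srebf2, switch on both branches when sterols in the endoplasmic reticulum run low. SCAP carries them to the Golgi for cleavage and the Insig proteins hold them back. In macrophages, which take up lipid from dying cells, sterols and desaturated fatty acids made by these pathways also tune inflammatory gene expression.

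SREBP is known to bind a short sterol element, often beside a CCAAT box, and the promoter windows of the members were therefore searched for the letters TCACNCCAC and CCAAT on both strands. RefSeq windows from 250 bases before to 50 bases after the gene start (GRCm38.p6) were available for 30 of the 37 genes. The sterol element letters stood in a window of 2 genes, Hmgcs1 and Acsl1, and in 1.24% of all 32851 windows of the same length. CCAAT stood in a window of 12 of 13 sterol branch genes, 9 of 13 fatty acid branch genes and 3 of 4 regulators. By windows, since some genes have several, that was 12 of 16, 9 of 16 and 4 of 7, beside 37.4% of all windows. No match of one overlapped a match of the other in the windows printed here. The window of Hmgcs1 (chr13:119690101-119690400, plus strand) is shown because it was the one sterol branch window with both motifs, and that of Mvd (chr8:122443373-122443672, minus strand) because Mvd had the largest difference among the mevalonate steps, a choice made after its values were seen. Capitals mark the motif letters, CCAAT on the opposite strand reading ATTGG.
Hmgcs1: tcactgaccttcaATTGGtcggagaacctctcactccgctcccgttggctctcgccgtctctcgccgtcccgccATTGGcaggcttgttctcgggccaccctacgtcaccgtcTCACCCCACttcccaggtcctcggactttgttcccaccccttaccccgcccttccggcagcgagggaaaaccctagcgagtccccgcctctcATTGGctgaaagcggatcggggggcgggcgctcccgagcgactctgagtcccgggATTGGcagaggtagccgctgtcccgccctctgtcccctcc
Mvd: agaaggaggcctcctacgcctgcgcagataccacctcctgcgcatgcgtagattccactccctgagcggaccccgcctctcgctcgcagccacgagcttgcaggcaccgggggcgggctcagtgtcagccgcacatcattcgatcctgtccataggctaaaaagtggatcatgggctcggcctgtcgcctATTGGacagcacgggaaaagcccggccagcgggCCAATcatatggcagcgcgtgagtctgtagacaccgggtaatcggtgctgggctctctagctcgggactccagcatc
Hmgcs1 holds the sterol element once and CCAAT 4 times, and Mvd holds CCAAT 2 times. A match describes letters in a window and no match says nothing of the factor.

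The values are MAS5 signals, a linear intensity per probe set that the authors had scaled to the same trimmed mean on every array, 150.1. Levels of different probe sets are not comparable, so each is compared with itself across arrays. The arrays carried the macrophage markers that the labels call for. All 9 macrophage markers on the array were tested, with the lysosomal glycoprotein Cd68 at 5851 to 7363, and 0 passed. At an unadjusted p under 0.05 (limma) there were 5 higher and 0 lower with TGFb2, against 12.1% of all tested genes in either direction. The groups did not overlap for 6 markers higher and 1 lower, where the shares over all tested genes were 22.1% and 21.7%. Their median log2 difference was 0.52. The largest differences were those of the Fc receptor Fcgr1, at 1.13 ± 0.22 on the log2 scale (SE), and the efferocytosis receptor Mertk, at 0.78 ± 0.21 (limma adjusted p = 0.066 and 0.18). The summed signals of the 9 were 17776 and 18222 on the TGFb2 arrays and 15816 and 16716 on the PBS arrays. Such sums, here and below, follow the brightest probe sets, in this list Cd68 and the lysozyme gene Lyz2, and do not measure an amount of cells. Of 6 adipocyte markers, chosen because adipocytes make fatty acids, 4 lay below the tested level on average, and adiponectin (Adipoq) did not exceed 16.2. The summed signal of the 6 was 1979 and 2515 on the TGFb2 arrays and 3292 and 3660 on the PBS arrays, most of it from lipoprotein lipase (Lpl), which macrophages also express. Leptin (Lep) differed by 0.06 ± 0.33 on the log2 scale (SE). Of 8 tested markers of fibroblasts and mesothelium, 4 were higher and 4 lower with TGFb2. Fbln2 rose by 1.53 ± 0.25 (log2, SE) and Dcn fell by 1.63 ± 0.22 (limma adjusted p = 0.040 and 0.026). The summed signals over 10 markers were 1978 and 1559 on TGFb2 arrays and 2573 and 1740 on PBS arrays. Dcn alone, at 319 and 257 with TGFb2 and 1131 and 747 with PBS, fell by more than these sums did. Of 11 markers of lymphocytes, mast cells and granulocytes, 4 were tested and 0 passed, led by Cpa3 of mast cells at 0.76 ± 0.31 and Camp of neutrophils at 0.30 ± 0.20 (limma adjusted p = 0.39 and 0.63). Summed over the 11, the signals were 311 and 226 on TGFb2 arrays and 233 and 198 on PBS arrays. The part of these cells in the values below was not tested, and in bulk RNA fewer cells of a type and less RNA per cell cannot be told apart.

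The comparison of TGFb2 with PBS asked which transcripts an overnight exposure to this cytokine moves. No member passed. Of the 32 tested probe sets, 0 rose and 0 fell at an adjusted p under 0.05 (limma on log2 of signal + 15, Benjamini-Hochberg over all 7453 tested probe sets), where 1.18% of all tested probe sets passed. At an unadjusted p under 0.05 there were 5 of 32, 3 higher and 2 lower with TGFb2, against 11.6% of all tested probe sets. The groups did not overlap for 4 of the 32 with TGFb2 higher and for 7 with TGFb2 lower, where the shares over all tested probe sets were 21.1% and 21.7%. The members thus counted near or below the background on these measures, except that 15.6% of their probe sets had an unadjusted p under 0.05.

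The size of change that these arrays leave possible differed by gene. From here on a gene stands for its brightest tested probe set unless another is named. The 95% interval of the log2 difference, not adjusted for the number of genes, lay inside a 2-fold change in either direction for 19 of the 25 member genes, for 12 of 14 in the sterol branch and for 6 of 10 in the fatty acid branch. Over all 5639 tested genes the share was 83.3%. The 6 member genes whose interval reached past a 2-fold change were Mvd, Dhcr7, Fasn, Elovl1, Scd2 and Acsl4.

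**Figure D1:**
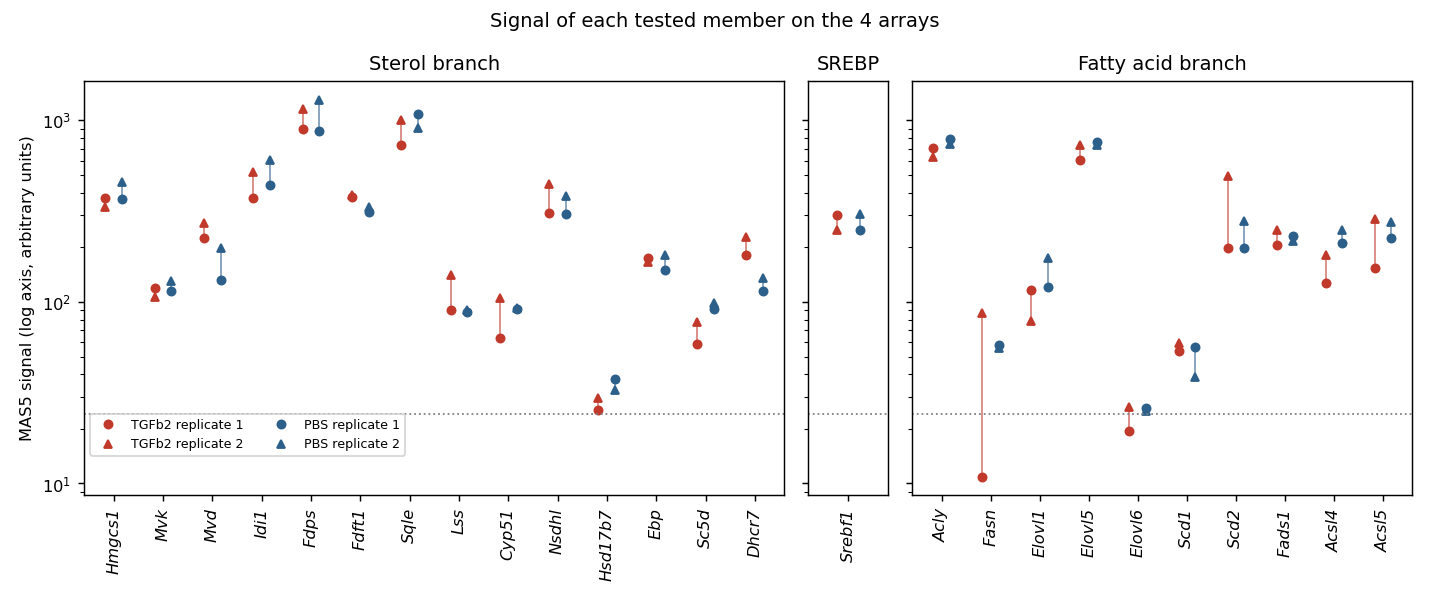
MAS5 signal (log axis) of the brightest tested probe set of each of 25 member genes, with TGFb2 arrays in red to the left of PBS arrays in blue. Circles are replicate 1, triangles replicate 2, and the dotted line is the level of about 24.0 for testing. Dhcr7 and Mvd have both TGFb2 points above both PBS points, Acsl4 both below, and Fasn spans 10.9 to 86.8 on the TGFb2 arrays alone.

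In the sterol branch, the 2 largest differences were higher with TGFb2 and stood at different ends of the pathway. Dhcr7 (chr7:143823167-143848410 in GRCm38.p6), the reductase that completes cholesterol, had signals of 182 and 229 on the TGFb2 arrays and 115 and 135 on the PBS arrays. Both TGFb2 arrays were above both PBS arrays. The fitted ratio was 1.57 (95% interval 1.15 to 2.14), a log2 difference of 0.65 ± 0.19 (SE), with a limma adjusted p of 0.23. Mvd, the decarboxylase that yields the first isoprenoid unit, had signals of 226 and 272 with TGFb2 and 132 and 197 with PBS. These groups were also apart, although the PBS arrays differed from each other by 0.52 on the log2 scale, about as much as the treatment difference of 0.57 ± 0.22 (ratio 1.49, 95% interval 1.04 to 2.13, limma adjusted p = 0.38).

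The other mevalonate and isoprenoid steps lay close to 0. Hmgcs1, the synthase that joins acetyl-CoA to acetoacetyl-CoA and whose promoter carries the sterol element printed above, had 372 and 333 with TGFb2 and 369 and 460 with PBS. TGFb2 replicate 1 and PBS replicate 1 were nearly equal, and the log2 difference was -0.22 (95% interval -0.63 to 0.20). Idi1, which interconverts the isoprenoid units, had 372 and 518 with TGFb2 and 439 and 604 with PBS, so the groups overlapped and each group's own arrays were further apart than its mean was from the other group's. The log2 difference of Idi1 was -0.22 (95% interval -0.74 to 0.30). Mvk, the mevalonate kinase, had 120 and 107 with TGFb2 and 115 and 130 with PBS, a log2 difference of -0.10 ± 0.18 (SE). Its second probe set, with 11.8 and 31.0 with TGFb2 and 12.0 and 13.5 with PBS, was below the tested level.

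Fdps, which builds farnesyl diphosphate for sterols and for protein prenylation, had 4 probe sets, which disagreed. The brightest had 895 and 1149 with TGFb2 and 880 and 1298 with PBS, a log2 difference of -0.07 ± 0.21 (SE), and the next had 558 and 789 with TGFb2 and 588 and 977 with PBS, a log2 difference of -0.19 ± 0.26. A dim one had 14 and 14.1 with TGFb2 and 46.3 and 33.4 with PBS. That probe set had the lowest difference of the 32, -0.91 ± 0.28 (limma adjusted p = 0.25), with TGFb2 signals below the tested level, so its size depends on the pseudocount. The last stayed between 3.1 and 6.7 on all arrays and was not tested.

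Between squalene and cholesterol the signs were mixed, with 5 of 9 enzymes positive and 4 negative. Fdft1, the squalene synthase, had 380 and 389 with TGFb2 and 312 and 334 with PBS. Like Dhcr7 and Mvd, it had both TGFb2 arrays above both PBS arrays, by a log2 difference of 0.24 ± 0.16 (SE, limma adjusted p = 0.62), and its interval of -0.12 to 0.61 was the narrowest of the sterol branch. Sqle, the squalene epoxidase and a control point of the pathway, had 730 and 1002 with TGFb2 and 1083 and 906 with PBS, which overlap, at -0.21 ± 0.19. Lss, which closes the ring to lanosterol, had 90.0 and 141 with TGFb2 and 87.9 and 90.5 with PBS, so its difference of 0.30 ± 0.23 came from TGFb2 replicate 2. Cyp51, which takes a methyl group off lanosterol, had 63.0 and 105 with TGFb2 and 91.3 and 92.1 with PBS, and differed by -0.14 ± 0.24.

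The last steps contained the lowest value of the sterol branch. Sc5d, a sterol desaturase that acts just before Dhcr7, had 58.9 and 77.4 with TGFb2 and 91.7 and 98.8 with PBS. Both TGFb2 arrays were lower, by a log2 difference of -0.42 ± 0.20 (SE, limma adjusted p = 0.50), opposite in sign to Dhcr7. A second Sc5d probe set, at 41.0 and 48.0 with TGFb2 and 48.0 and 49.4 with PBS, differed by -0.10 ± 0.22. Hsd17b7, a ketone reductase of sterol demethylation, had 25.4 and 29.6 with TGFb2 and 37.6 and 32.7 with PBS, near the tested level, at -0.24 ± 0.26. Nsdhl, the dehydrogenase of the same reaction, had 3 probe sets between -0.03 and 0.12 on the log2 scale, the brightest with 310 and 449 with TGFb2 and 306 and 384 with PBS. Ebp, the sterol isomerase, had 174 and 167 with TGFb2 and 150 and 181 with PBS, a log2 difference of 0.04 ± 0.18.

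Of the regulators, Srebf1 was tested and did not pass. Its signals were 300 and 248 with TGFb2 and 249 and 306 with PBS, a log2 difference of -0.02 with a 95% interval from -0.45 to 0.42. Each group held 1 array near 250 and 1 near 300. The probe set does not separate the isoforms of this gene. Insig1, itself a known SREBP target, was at 3.2 and 0.8 with TGFb2 and 6.3 and 1.1 with PBS, far below the tested level on every array, and gives no comparison.

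**Figure D2:**
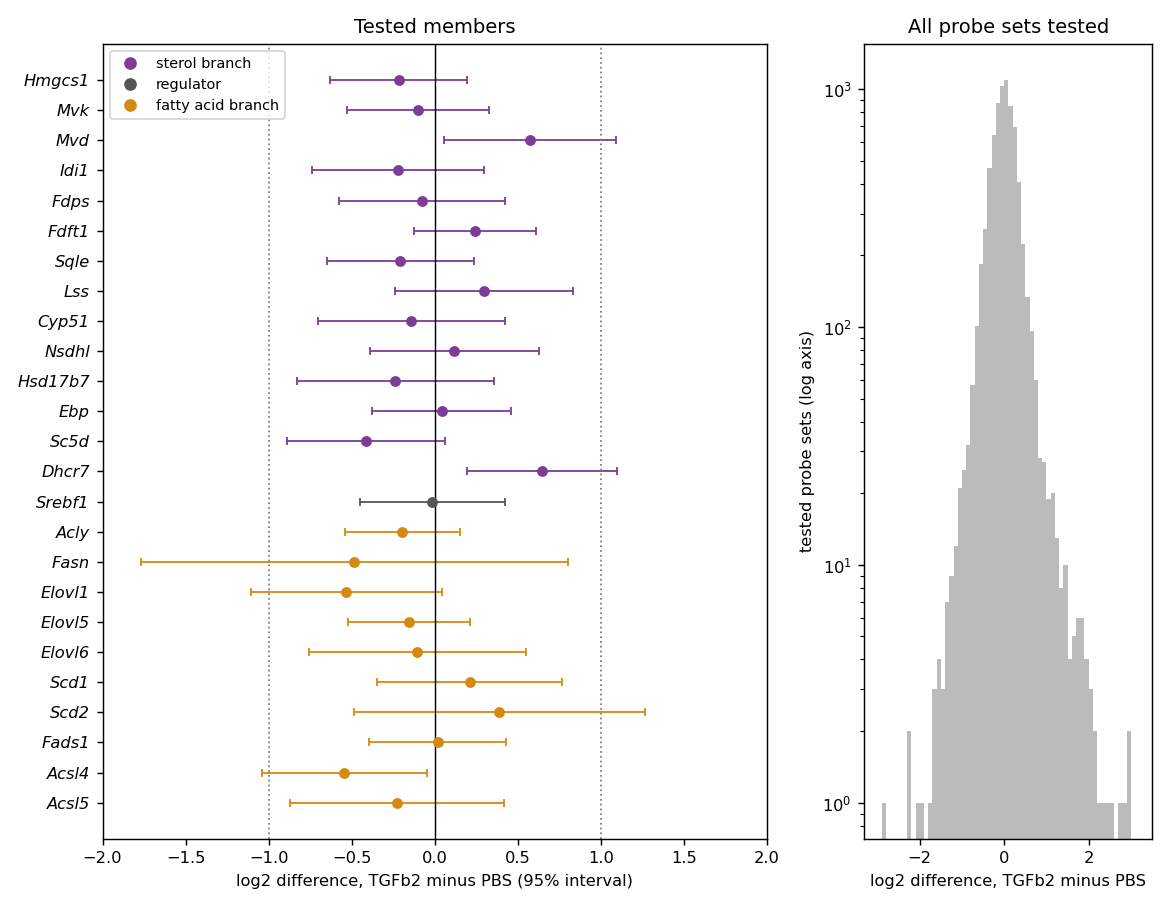
Left, log2 difference of TGFb2 minus PBS for each tested member gene with its 95% interval from limma (2 arrays per group, intervals not adjusted for the number of genes), in pathway order, the dotted lines marking a 2-fold change. Right, the same difference for all 7453 tested probe sets (log axis of counts). The intervals of Mvd, Dhcr7 and Acsl4 leave out 0, and 0 member genes passed after adjustment.

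In the fatty acid branch 7 of 10 genes were negative, as were 2801 of all 5639 tested genes. In the brightest probe sets the groups did not overlap for 0 genes with TGFb2 higher and 3 with TGFb2 lower. The shares over all tested genes were 22.1% and 21.7%. Acly, which makes cytosolic acetyl-CoA from citrate for both branches, had 706 and 629 with TGFb2 and 791 and 740 with PBS. The groups were apart but close, at a log2 difference of -0.20 ± 0.15 (SE, 95% interval -0.54 to 0.15). Fasn, the fatty acid synthase, had 10.9 and 86.8 with TGFb2 and 57.6 and 56.0 with PBS. The 2 TGFb2 arrays lay on either side of the PBS arrays, and the interval of its difference, -1.77 to 0.80, was the widest of the members. Me1, malic enzyme, a source of NADPH, stayed between 17.1 and 27.7 on all arrays and was not tested.

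Acsl4, an acyl-CoA synthetase that prefers arachidonic acid, had the lowest difference of the fatty acid genes, and its 2 tested probe sets were close to each other. The brighter had 127 and 182 with TGFb2 and 211 and 248 with PBS. The dimmer had 34.4 and 32.8 with TGFb2 and 53.1 and 48.2 with PBS. In each, both TGFb2 arrays were below both PBS arrays, and the log2 differences were -0.54 ± 0.21 and -0.43 ± 0.23 (SE, limma adjusted p = 0.38 and 0.53). Acsl5, a synthetase of the same family, had 154 and 285 with TGFb2 and 225 and 276 with PBS. The TGFb2 arrays enclosed the PBS arrays, and the difference was -0.23 ± 0.28.

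The desaturases did not pass, and Scd2, Scd1 and Fads1 each changed sign in their brightest probe sets under at least 1 alternative. Scd2 (chr19:44293676-44306864 in GRCm38.p6) encodes a stearoyl-CoA desaturase, which puts the double bond into saturated chains, and lies beside its relative Scd1 (chr19:44394450-44407709). One Scd2 probe set had 307 and 365 with TGFb2 and 153 and 218 with PBS. Its groups did not overlap and its difference, 0.82 ± 0.21 (SE, ratio 1.77, 95% interval 1.26 to 2.49), was the highest of the 32, with a limma adjusted p of 0.15. Under the alternatives its difference ran from 0.59 to 1.06. Since its groups did not overlap, leaving out 1 array could not change its sign. The brighter Scd2 probe set, which can share probes with related sequences, had 199 and 491 with TGFb2 and 199 and 280 with PBS. There TGFb2 replicate 1 equalled PBS replicate 1, and the difference was 0.39 ± 0.38.

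Scd1 had 53.7 and 59.7 with TGFb2 and 56.7 and 38.6 with PBS in its one tested probe set, a log2 difference of 0.21 ± 0.24 (SE). A dim Scd1 probe set had 15 and 12.7 with TGFb2 and 2.3 and 2.0 with PBS, and another stayed between 2.5 and 9.3, all below the tested level. Fads1, a desaturase of polyunsaturated fatty acids, had 205 and 249 with TGFb2 and 231 and 216 with PBS, and differed by 0.02 (95% interval -0.40 to 0.43).

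The elongases were level or lower. Elovl1, which lengthens very long saturated chains, had 116 and 79.0 with TGFb2 and 121 and 175 with PBS. Both TGFb2 arrays were lower, TGFb2 replicate 1 by little, and the difference was -0.53 ± 0.25 (SE, limma adjusted p = 0.47). Elovl5, an elongase of polyunsaturated chains, had 604 and 731 with TGFb2 and 757 and 731 with PBS, at -0.16 ± 0.16. Elovl6, which carries palmitate to stearate, had 19.4 and 26.3 with TGFb2 and 25.9 and 25.2 with PBS, at the edge of the tested level, and differed by -0.11 ± 0.28. Its other probe set had 3.0 and 2.1 with TGFb2 and 15 and 18.8 with PBS, below that level on every array.

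Set against each other, the branches differed by less than the arrays of one group did. The median log2 difference was -0.09 over the 14 sterol genes and -0.18 over the 10 fatty acid genes, and 0.00 over all 5639 tested genes. Without TGFb2 replicate 1 the medians became 0.06 and 0.09, and without PBS replicate 2 the sterol median became 0.08, so neither branch had a settled direction. The sterol median minus the fatty acid median was 0.09, from -0.03 without TGFb2 replicate 1 to 0.23 without PBS replicate 2, where the spread of this quantity between replicates was 0.13 (SD, pooled over 2 arrays per group). With 2 arrays per group no p-value is given for the branches.

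The medians of the branches by array show where that spread lay. Relative to each gene's PBS mean, the median sterol gene stood at -0.14 and 0.06 on TGFb2 replicates 1 and 2 and at -0.09 and 0.09 on PBS replicates 1 and 2. The median fatty acid gene stood at -0.26 and 0.09 on the TGFb2 arrays and at 0.01 and -0.01 on the PBS arrays. Over all tested genes the 4 medians were between -0.01 and 0.02. On TGFb2 replicate 1 every tested fatty acid gene except Scd1 lay below its own PBS mean. Fasn (-1.47), Acsl4 and Acsl5 were the lowest of them.

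Among sterol genes the arrays numbered 2 were the higher ones in both groups more often than over the array. This held for 9 of 14 sterol genes (Mvd, Idi1, Fdps, Fdft1, Lss, Cyp51, Nsdhl, Sc5d and Dhcr7), and for 3 of 10 fatty acid genes (Scd2, Acsl4 and Acsl5). The arrays numbered 1 were the higher ones in both groups for 0 of 14 sterol genes. Over all 5639 tested genes the shares were 25.6% and 29.3%. The median sterol gene was higher on replicate 2 than on replicate 1 by 0.32 with TGFb2 and by 0.18 with PBS (log2), against -0.02 and -0.01 over all tested genes. This pattern was noticed in the values and has no test, and no label ties a number to a shared culture, day or animal.

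**Figure D3:**
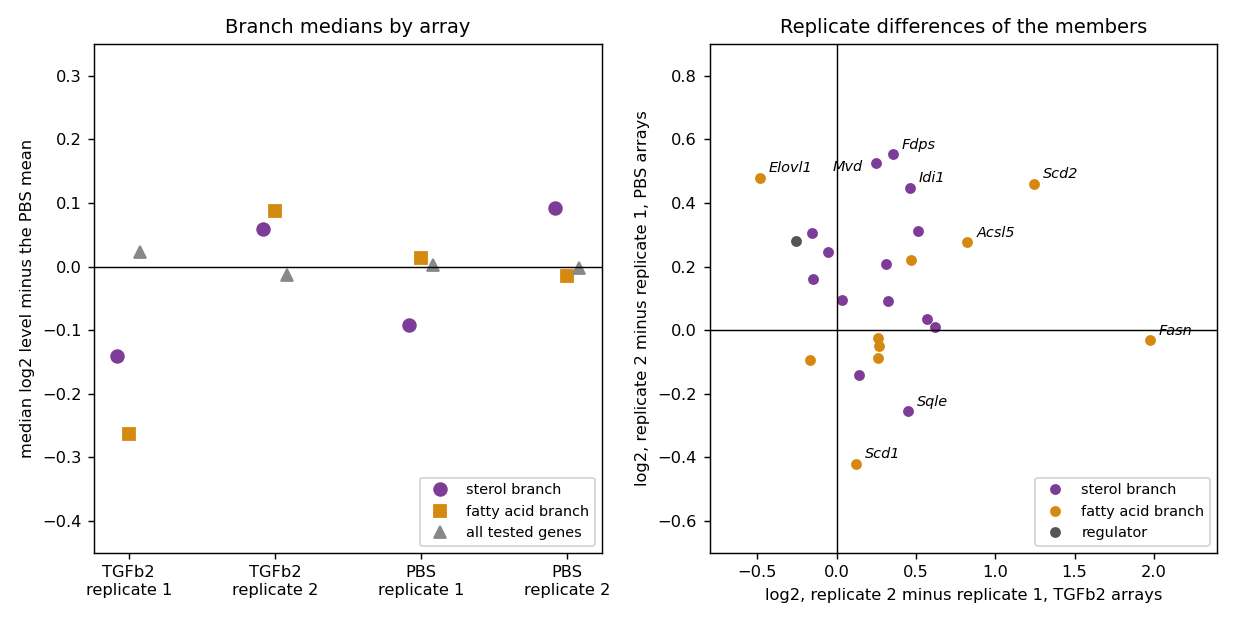
Left, median log2 level of the 14 sterol genes, 10 fatty acid genes and 5639 tested genes on each array, relative to each gene's PBS mean. Right, log2 difference of replicate 2 minus replicate 1 on the TGFb2 arrays (x axis) and on the PBS arrays (y axis) for each member gene. Of 14 sterol genes 9 are at the upper right and 0 at the lower left, and Fasn is farthest right.

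Other genes of the sterol pathway and its SREBP targets came from a list chosen with earlier results of these data known. Of 9 tested genes, 9 did not pass (0 up and 0 down in limma), with a median log2 difference of -0.15. At an unadjusted p under 0.05 there were 0 higher and 2 lower, against 12.1% of all tested genes in either direction. The groups did not overlap for 1 gene higher and 4 lower, where the shares over all tested genes were 22.1% and 21.7%. Msmo1, the sterol methyl oxidase between Cyp51 and Nsdhl, had 390 and 475 with TGFb2 and 424 and 541 with PBS, at -0.15 ± 0.19 (SE). Tm7sf2, a sterol reductase, had 119 and 127 with TGFb2 and 134 and 145 with PBS, both TGFb2 arrays a little lower. The 2 largest differences were those of Lpin1, a phosphatidate phosphatase, and Pcyt1a, the regulated enzyme of phosphatidylcholine synthesis. Lpin1 had 34.7 and 30.0 with TGFb2 and 55.3 and 72.7 with PBS, at -0.73 ± 0.24, and Pcyt1a had 263 and 311 with TGFb2 and 508 and 404 with PBS, at -0.64 ± 0.19 (limma adjusted p = 0.27 and 0.22). For both, the TGFb2 arrays were below the PBS arrays.

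The genes that sense, store or export cholesterol also held 0 of 11 past the threshold. Their median difference was 0.09. At an unadjusted p under 0.05 there were 2 higher and 0 lower, against 12.1% of all tested genes in either direction. The groups did not overlap for 5 genes higher and 1 lower, where the shares over all tested genes were 22.1% and 21.7%. Apoe, the apolipoprotein that carries cholesterol out of macrophages, had 12347 and 8574 with TGFb2 and 6023 and 5424 with PBS, at 0.85 ± 0.17 (SE, limma adjusted p = 0.067). Both TGFb2 arrays were well above both PBS arrays. Lipa, the lysosomal lipase that frees cholesterol from its esters, had 1881 and 3584 with TGFb2 and 3645 and 4333 with PBS, at -0.61 ± 0.27 (limma adjusted p = 0.44). The nuclear receptor Nr1h3 (LXR alpha), which drives efflux genes when sterols are plentiful, differed by 0.04 ± 0.19, and its target Abca1, the cholesterol exporter, had 76.3 and 72.5 with TGFb2 and 82.7 and 65.3 with PBS.

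**Figure D4:**
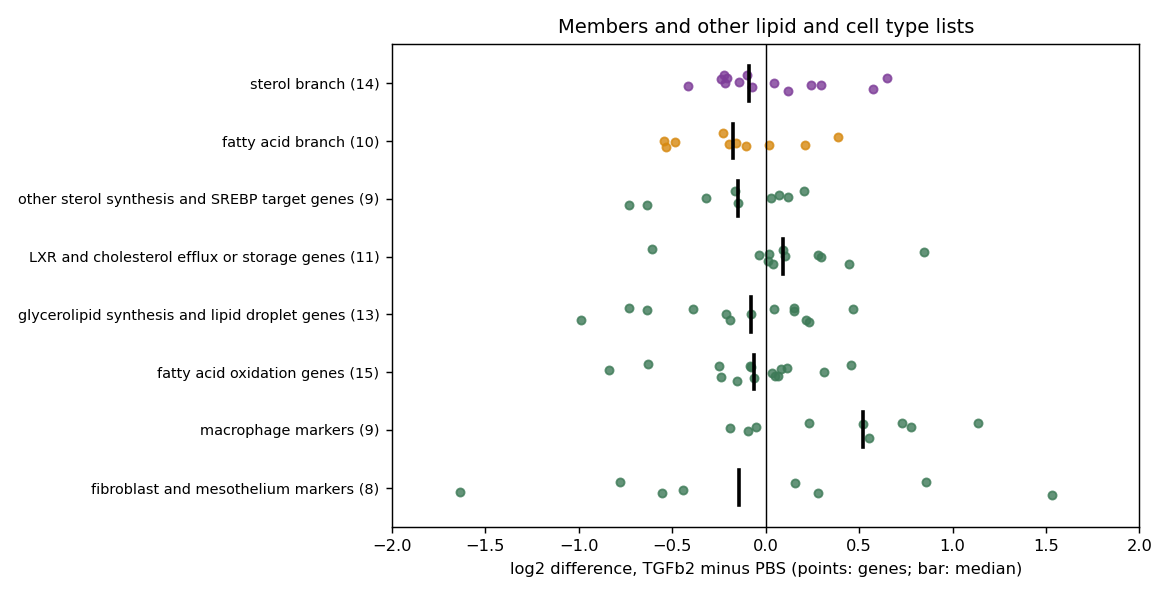
Log2 difference of TGFb2 minus PBS (x axis) for each tested gene (points, brightest probe set) in the sterol and fatty acid branches, in 4 other lipid lists and in 2 lists of cell type markers, with the number of tested genes in brackets and the median as a bar. The medians of the sterol and fatty acid branches are -0.09 and -0.18, and the median of the 9 macrophage markers is 0.52.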

How the data were processed

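RNA of 2 TGFb2-treated and 2 PBS-treated samples was hybridised to Affymetrix arrays as biotin-labelled cRNA, per the labels' protocols. MAS5 made the deposited intensities, as the submitters' processing notes say, and they run from 0.1 to 15281. Their 2% trimmed means were equal, so they were not rescaled. The sources used here give no MAS5 version, detection calls or scan batches, and the number of arrays limits the precision. Of 12488 probe sets, 66 controls were left out. A linear model of log2(signal + 15) used limma 3.58.1 under R 4.3.3 (lmFit, eBayes with an intensity trend, two-sided, Benjamini-Hochberg over all 7453 tested probe sets), without further terms. The pseudocount is 10% of the trimmed mean and understates changes of dim genes. The fit was tested on simulated data. Members, gene lists and tests were chosen with earlier results of these data known. Every member is named, and of each other list the genes past the threshold or, where there were none, the 2 with the largest difference. Adgre1, Cd68, Adipoq, Msmo1, Tm7sf2, Nr1h3, Abca1, Cpt1a and Plin2 were added after their values were seen. Alternatives were the pseudocount, normalization, filter, variance trend, replicate block, probe sets per gene and each array left out.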

Additional observations from a re-analysis of the deposited data

How the results depend on the processing

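Under all 12 alternatives that give a count except the replicate block, 0 member probe sets passed. With the replicate block (the number in the titles as a term) 1 passed, the Scd2 probe set at 0.82 (limma adjusted p = 0.015), and the total was 320 probe sets in place of 88. The labels do not say whether the numbers pair the arrays, and this was not tested. Differences of replicate 1 minus replicate 2 in the 2 groups correlated at 0.15 over the tested probe sets. The block changed no other member's call. The total was 6 without the filter on dim probe sets and 16 without the intensity trend, and 11 to 42 with 1 array left out, where the lone array is assumed to vary like the other group. With 1 array left out, members past the threshold stayed at 0 to 0, the sterol median ran from -0.14 to 0.083, the fatty acid median from -0.26 to 0.087, and their difference from -0.027 to 0.23. The cause of these shifts was not tested. Of 25 member genes, 12 kept their sign under every alternative, among them Dhcr7 (0.49 to 0.80), Mvd (0.31 to 0.83) and Acsl4 (-0.78 to -0.31), and 13 changed it at least once. The groups of Dhcr7, Mvd and Acsl4 do not overlap, so leaving out an array could not change their sign. The filter, the variance trend and the replicate block left the estimate of each tested gene unchanged. A kept sign is therefore no separate support. Signals near 24.0 limit Fasn, Elovl6, Hsd17b7 and Scd1.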

Other observations

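Genes that burn or store fatty acids showed single large differences, and both lists held positive and negative differences. Of 15 tested genes of fatty acid oxidation, 0 passed, with a median log2 difference of -0.06. At an unadjusted p under 0.05 there were 1 higher and 2 lower, against 12.1% of all tested genes in either direction. The groups did not overlap for 1 gene higher and 3 lower, where the shares over all tested genes were 22.1% and 21.7%. Acadl, a dehydrogenase of long chains, had 78.6 and 111 with TGFb2 and 152 and 210 with PBS, at -0.84 ± 0.23 (SE, limma adjusted p = 0.19). Pparg, the lipid-sensing nuclear receptor, had 98.1 and 87.8 with TGFb2 and 172 and 134 with PBS, at -0.63 ± 0.20 (limma adjusted p = 0.24). For both, the 2 TGFb2 arrays were below the PBS arrays. Cpt1a, the gate for fatty acids into mitochondria, had 1131 and 1449 with TGFb2 and 900 and 962 with PBS, in the opposite direction (0.45 ± 0.16, limma adjusted p = 0.33).

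Of 13 tested genes of glycerolipid synthesis and lipid droplets, 0 passed, with a median of -0.08. At an unadjusted p under 0.05 there were 0 higher and 3 lower, against 12.1% of all tested genes in either direction. These 3 were Mgll, Lpin1 and Pcyt1a, and the last 2 also stand in the list of SREBP targets above. The groups did not overlap for 1 gene higher and 6 lower, where the shares over all tested genes were 22.1% and 21.7%. Mgll, the lipase of monoacylglycerols, had 37.9 and 25.1 with TGFb2 and 79.5 and 73.4 with PBS, at -0.99 ± 0.24 (limma adjusted p = 0.13). The droplet coat protein gene Plin2 had 8010 and 11016 with TGFb2 and 8795 and 8123 with PBS, which overlap. Lipoprotein lipase (Lpl), which releases fatty acids from circulating triglyceride, had 1574 and 2301 with TGFb2 and 2951 and 3442 with PBS, at -0.74 ± 0.19 (limma adjusted p = 0.15).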
